A study of Mus musculus with 3 samples.

Results

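The genes of oxidative phosphorylation were compared across 3 segments of the embryonic mouse gut, the ileum, the caecum and the colon. They were taken by name, as features called Nduf followed by a, b, c, s or v, Sdha to Sdhd, Uqcr, Cox4 to Cox8 with a letter from a to c, Atp5, and the mitochondrial mt-Nd, mt-Co, mt-Cytb and mt-Atp genes, leaving out names that end in -ps and a digit. This gave 102 of 33762 features, of which 89 lie in the nuclear genome, on 19 chromosomes, and 13 in the mitochondrial genome. The 89 nuclear features carry 88 names, since Ndufb8 is listed under 2 identifiers. All samples came from wild-type embryos of the strain labelled Bl6/C57 at E13.5, with no treatment named, and each segment had 1 sample. The small intestine had been cut into 3 parts of equal length, and the last of them stands for the ileum. Whether tissue of several embryos was pooled is not given in the sources used here.

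Oxidative phosphorylation takes place in the inner mitochondrial membrane. Complex I (NADH dehydrogenase) and complex II (succinate dehydrogenase) feed electrons to coenzyme Q, complex III passes them to cytochrome c, and complex IV (cytochrome c oxidase) passes them to oxygen. Complexes I, III and IV pump protons, and complex V, the ATP synthase, uses the gradient to make ATP. Complex II is made from nuclear genes alone, whereas the other complexes combine nuclear subunits with core subunits read from mitochondrial DNA, which is transcribed as long precursors from both strands and cut into single messengers. The name rule also takes in genes that are no subunits. Ndufaf1 to Ndufaf4 are assembly factors of complex I, and Atp5s, Cox7a2l and Ndufa4l2 are relatives of subunits. Atp5sl, listed as Dmac2 in GENCODE, is counted here with complex V and with these relatives by its name only. Atp5l2, counted here with complex V, is listed as a processed pseudogene in GENCODE. The rule misses the subunit genes Cox4i1 and Cyc1, which are named differently.

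Many nuclear members are textbook targets of NRF1, of GABP (an ETS-family factor) and of YY1, so their RefSeq promoters were searched for the motifs of these factors. Of the 88 nuclear names, 72 matched a RefSeq promoter in GRCm38.p6, giving 78 windows from 250 bases before to 50 bases after the start. The NRF1 motif, GCGC and TGCGC with 1 base of any kind between them, on either strand, was found in 24.4% of these windows and in 4.60% of all 32851 promoter windows. The ETS motif CCGGAAG was found in 21.8% against 8.86%, and the YY1 motif AAGATGGC in 14.1% against 2.75%. Any of the 3 was found in 52.6% of members' windows and 14.7% of all windows. A match describes letters and not a bound site, and the windows were not matched for base composition. Stretches of 4 promoters with several matches follow, 5′ to 3′ on the gene's strand and upstream of the start, with NRF1 and ETS matches in capitals. They are Cox6a1 (chr5:115348959-115349130, minus strand), Sdhd (chr9:50603879-50603938, minus), Sdha (chr13:74350241-74350348, minus) and Atp5h (chr11:115419941-115420070, minus).
Cox6a1: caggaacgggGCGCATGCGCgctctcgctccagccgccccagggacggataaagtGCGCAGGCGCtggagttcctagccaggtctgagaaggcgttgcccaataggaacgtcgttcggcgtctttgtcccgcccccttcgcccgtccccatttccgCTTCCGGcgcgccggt
Sdhd: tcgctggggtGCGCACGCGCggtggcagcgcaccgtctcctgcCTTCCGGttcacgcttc
Sdha: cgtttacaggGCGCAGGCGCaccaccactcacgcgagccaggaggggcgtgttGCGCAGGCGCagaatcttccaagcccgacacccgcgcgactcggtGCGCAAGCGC
Atp5h: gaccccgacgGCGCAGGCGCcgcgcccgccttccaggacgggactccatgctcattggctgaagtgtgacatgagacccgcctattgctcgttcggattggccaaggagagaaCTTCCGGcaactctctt

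The ileum, caecum and colon libraries held 50079617, 64439701 and 50772855 counts. Both columns deposited for a segment were read as 1 library, so no difference has a replicate check and no p-value is given. Levels are the authors' RPKM (reads per kilobase of gene model, scaled to the depth of the library). Ratios are of counts scaled by TMM (a trimmed mean of ratios that sets most features even), and brackets give 95% intervals for counting error only. A ratio was computed where the higher library had at least 20 counts. Epithelial Cdh1 (20.3, 21.1 and 32.2 RPKM in ileum, caecum and colon) and mesenchymal Col3a1 (256, 268 and 292 RPKM) were present in every library. The 7 epithelial markers summed to 154, 173 and 197 RPKM and the 7 mesenchymal ones to 783, 776 and 839. In each list 2 of 7 were lower in colon than in ileum, where 50.8% of all features were. These were Epcam and Vil1, and Col1a1 and Pdgfra. The skeletal muscle regulators Myod1, Myog and Myf5 had 0 to 2 counts in each. Other striated muscle markers were present and differed between libraries. In ileum, caecum and colon, Actc1 had 240, 67 and 46 counts, Tnnt1 342, 308 and 180, and Tnnt2 376, 111 and 152. Of 8 striated muscle markers with enough counts, 6 were lower in caecum than in ileum and 2 were higher. Of all features, 48.7% were lower in that pair.

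Mitochondrially encoded messengers were far more abundant per length than nuclear ones. The median nuclear member had 36.6, 33.7 and 35.3 RPKM in ileum, caecum and colon, and the median mitochondrially encoded member had 1893, 1742 and 1699 RPKM. The summed RPKM of the 13 mitochondrially encoded members was 7.52, 7.92 and 7.33 times that of the nuclear members. In counts, nuclear members made up 0.809%, 0.731% and 0.783% of a library and the mitochondrially encoded ones 2.75%, 2.60% and 2.55%. The caecum library was thus lowest for the nuclear share and the colon library for the mitochondrial one.

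**Figure D1:**
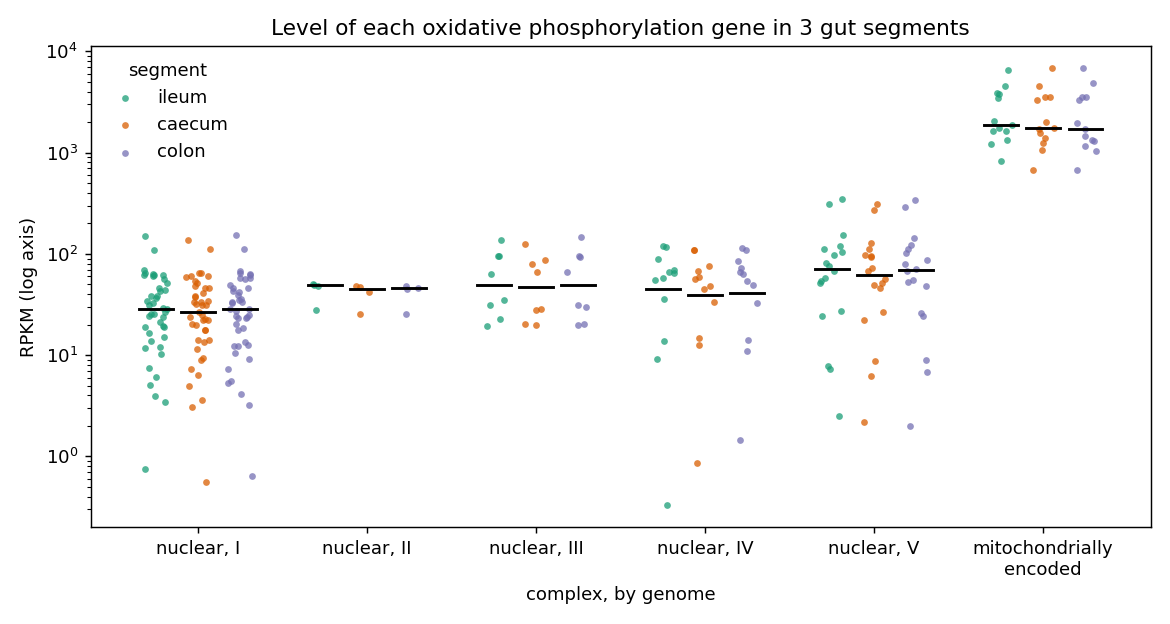
RPKM of each member (log axis) by complex for nuclear members and together for the mitochondrially encoded ones, in ileum, caecum and colon libraries. Points are genes, drawn above 0.1 RPKM only, and black lines are medians over all members; the 13 mitochondrially encoded genes lie between 677 and 6880 RPKM and every nuclear gene lies below 349.

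Complex V had the highest nuclear median, at 71.7, 62.1 and 69.2 RPKM in ileum, caecum and colon, and complex I the lowest, at 28.5, 26.4 and 28.4 RPKM. Atp5a1, the alpha subunit of the catalytic head of ATP synthase, was the most abundant nuclear member, at 349, 308 and 342 RPKM. In complex I the top member was Ndufa4, at 151, 136 and 153 RPKM, a small protein now counted as part of cytochrome c oxidase. In complex III the top member was Uqcrh, the hinge protein, at 138, 124 and 146 RPKM, and the lowest were Uqcrq, at 19.4, 20.2 and 20.1 RPKM, and Uqcr11, at 22.7, 19.9 and 19.9 RPKM. In complex IV the top members were Cox6a1, highest in the ileum, at 119, 108 and 110 RPKM, and Cox6b1, highest in the other libraries, at 118, 110 and 115 RPKM. Subunits of one complex thus differed several-fold in messenger level. Some of the lowest values came with long gene models. Ndufab1, Ndufb2, Atp5g1 and Ndufb7 stood at 3.45, 5.12, 7.34 and 7.47 RPKM in the ileum, and the annotated exons of these genes cover 6883, 5628, 4912 and 4522 bases. Over 85 nuclear members the implied length and the RPKM had a Spearman correlation of -0.127, a description across genes that share libraries.

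Nuclear members were slightly but widely lower in the caecum library than in the ileum library. Of 85 nuclear members with enough counts, 72 were lower in the caecum, where 48.7% of all features were lower. Their median log2 ratio was -0.15, against 0.01 for all features. At least 1.1-fold lower were 44 nuclear members, where 29.3% of all features were, and 4 were at least 1.1-fold higher, namely Cox7a1, Cox6b2, Ndufa1 and Atp5sl, where 32.5% of all features were. The whole interval lay below 1 for 55 members, against 28.7% of all features, and above 1 for 3, against 30.6%. With 1000 counts or more in the higher library, it lay below 1 for 52 of 73 nuclear members and above 1 for 1. Of all features with 1000 counts or more, 36.0% lay below 1 and 36.2% above. The members also stayed close together, with a middle 50% of 0.14 log2 units against 0.39 for all features and 0.29 for features with 1000 counts or more. Larger differences were few, with 2 nuclear members higher by 25% or more, Cox7a1 and Cox6b2, where 17.8% of all features were. Lower by 20% or more, the same fold the other way, were 4, Cox5a, Ndufb4, Ndufb6 and the sparse Ndufa4l2, where 13.1% of all features were. Such differences were rarer among well-counted features. Of 9647 features with 1000 counts or more, 964 were higher by 25% or more and 734 lower by 20% or more.

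**Figure D2:**
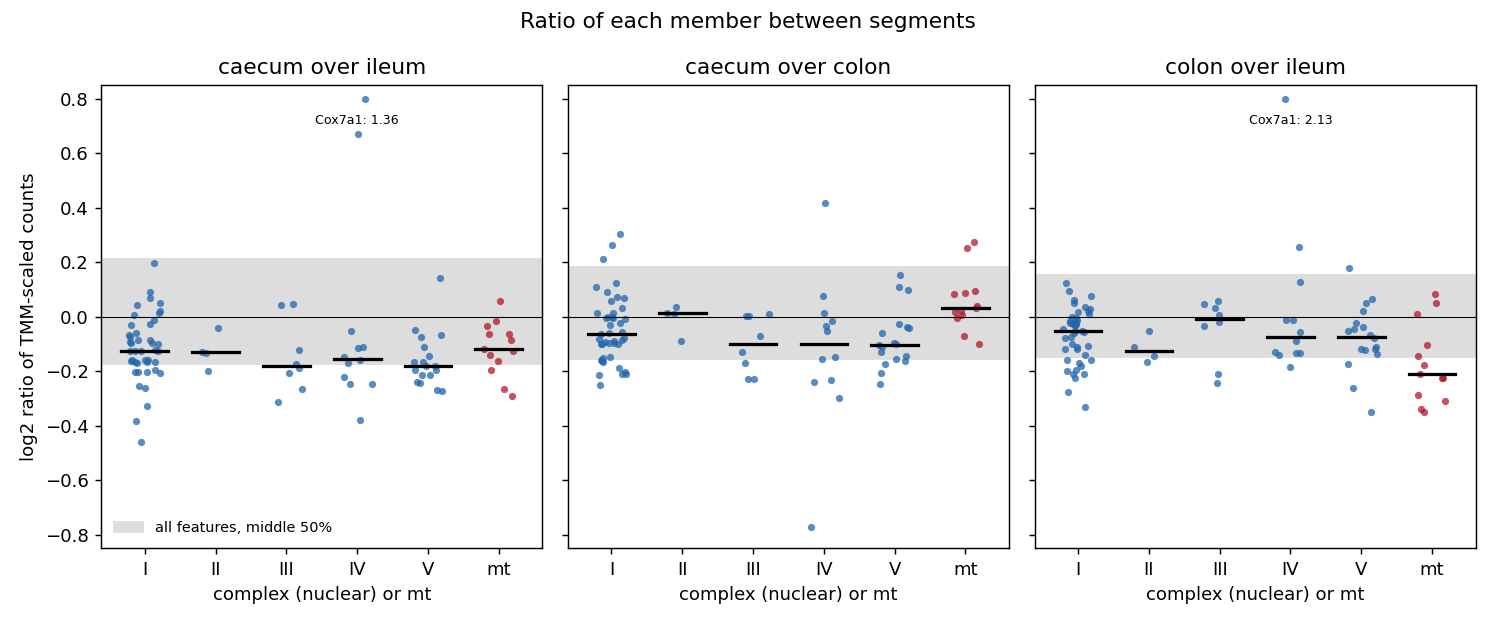
Log2 ratio of TMM-scaled counts for each nuclear member by complex (blue) and each mitochondrially encoded member (mt, red) in 3 pairs of segments; black lines are medians and the grey band is the middle 50% of all features. Cox7a1 lies outside the axis at 1.36 and 2.13 and is drawn at its edge; most points lie below 0 in caecum over ileum, and the mt points lie lowest in colon over ileum.

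In the order of the 3 segments, 45 of 85 nuclear members were highest in the ileum, next in the colon and lowest in the caecum, an order held by 19.4% of all features. The caecum was lowest for 57 nuclear members, against 33.8% of all features, and the ileum highest for 60, against 34.3%. Against the colon, 61 of 85 nuclear members were lower in the caecum, where 48.3% of all features were, with a median log2 ratio of -0.08. Between those libraries 1 nuclear member, Cox6b2, was higher in the caecum by 25% or more and 1, Cox7a1, lower by 20% or more, where 16.3% and 12.3% of all features were. Between colon and ileum, 64 of 85 were lower in the colon, where 50.8% of all features were, with a median of -0.06. There, 3 nuclear members passed the same fold in either direction, Cox7a1 higher in the colon and Ndufv3 and Atp5s lower, where 27.6% of all features did. At least 1.1-fold lower were 26 of 85 nuclear members (30.6%) in caecum over colon and 21 (24.7%) in colon over ileum. Of all features, 27.0% and 26.4% were, so the shares of nuclear members are near those of all features. At least 1.1-fold higher were 5 and 3 nuclear members, where 30.0% and 26.6% of all features were. The 3 pairs share libraries, so these counts are not independent of each other.

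The lower caecum values ran through all 5 complexes. Median log2 ratios of caecum over ileum were -0.12 for 43 members of complex I, -0.13 for 4 of complex II, -0.18 for 8 of complex III, -0.15 for 12 of complex IV and -0.18 for 18 of complex V. Of the 18 members counted with complex V, 17 were lower in the caecum, where 48.7% of all features were. The exception was Atp5sl, which is placed there by its name only. The 18 also include Atp5s and the pseudogene Atp5l2. Atp5a1 had 54762, 62195 and 54378 counts in ileum, caecum and colon, and its caecum over ileum ratio was 0.873 (0.863 to 0.883). All 5 genes of the catalytic head, Atp5a1, Atp5b, Atp5c1, Atp5d and Atp5e, were lower in caecum than in either other library. The caecum was lowest for 33.8% of all features.

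The c-ring of ATP synthase, which turns as protons pass, is made of 1 protein encoded by 3 genes. Atp5g3 had 152, 127 and 142 RPKM, Atp5g2 67.4, 56.5 and 67.4, and Atp5g1 7.34, 6.29 and 6.77 in ileum, caecum and colon. Atp5g3 thus gave 67.0%, 66.9% and 65.7% of their summed RPKM, nearly the same share in each segment. Atp5g1 and Atp5g2 share sequence with pseudogenes that are counted as features of their own. These shares therefore depend on how reads with several matches were counted, which is not given. Their caecum over ileum ratios were alike, at 0.827 (0.809 to 0.844) for Atp5g3, 0.829 (0.782 to 0.879) for Atp5g2 and 0.848 (0.795 to 0.904) for Atp5g1. Atp5f1, a subunit of the peripheral stalk that holds the head still, had 57.8, 49.3 and 55.5 RPKM and a ratio of 0.844 (0.824 to 0.866). Atp5h, also in the stalk, had another profile, at 27.4, 26.4 and 24.6 RPKM, with the colon lowest and a caecum over colon ratio of 1.08 (1.01 to 1.15). Atp5k, the small e subunit of the membrane part, was likewise lowest in the colon, at 104, 93.4 and 87.8 RPKM, with a colon over ileum ratio of 0.833 (0.792 to 0.877). Atp5j2, the f subunit, had 97.9, 95.6 and 103 RPKM and showed little difference.

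Cox5a, a nuclear subunit of cytochrome c oxidase (chromosome 9, 57369039 to 57380231 in mm9), had the lowest caecum over ileum ratio among nuclear members with 1000 counts or more. It had 2008, 2010 and 1876 counts in ileum, caecum and colon, although the caecum library was the deepest, and its caecum over ileum ratio was 0.770 (0.723 to 0.819). Against the colon its caecum ratio was 0.848 (0.796 to 0.903). Part of the Cox5a sequence is shared with other annotated genes, a limit described below. Cox7b, another small subunit, had 66.6, 56.7 and 66.9 RPKM and was likewise lowest in the caecum, at 0.851 (0.815 to 0.888) of the colon. Cox7c ran the other way against the colon, at 68.9, 67.1 and 63.9 RPKM and a ratio of 1.06 (1.01 to 1.1).

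Several subunits of complex IV come in isoforms that differ between tissues, and the gut libraries held almost only the widely expressed forms. Cox6a1 had 4170, 4891 and 3914 counts in ileum, caecum and colon, while Cox6a2, the heart and skeletal muscle form, had 0 in each. In the same order, exact Clopper-Pearson upper limits for the share of Cox6a2 in the pair's counts were 0.0884%, 0.0754% and 0.0942%. Cox8a had 2450, 2686 and 2368 counts, Cox8b, a muscle form, 0, 1 and 1, and Cox8c, a testis form, 0 in each. Cox7b had 4049, 4438 and 4126 counts and Cox7b2 0, 1 and 0. These 4 sparse genes, Cox6a2, Cox7b2, Cox8b and Cox8c, are the nuclear members with too few counts for a ratio.

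Cox7a1 and Cox6b2 were the isoforms with the highest ratios between segments. Cox7a1, the heart and skeletal muscle form of subunit VIIa (chromosome 7, 30969190 to 30971047), had 6, 20 and 27 counts in ileum, caecum and colon, beside 2080, 2321 and 1881 for the widely expressed Cox7a2. Cox7a1 was the only member at least 2-fold apart in any pair, where 4.59% of all features were 2-fold higher in caecum over ileum, 5.11% in caecum over colon and 4.04% in colon over ileum. In the same pairs 2.52%, 2.74% and 4.29% of all features were 2-fold lower. Its ratios were 2.56 (0.993 to 7.80) for caecum over ileum and 4.37 (1.77 to 13.0) for colon over ileum. In the column labelled replicate 1 alone it had too few counts for caecum over ileum. Cox6b2, the testis form of subunit VIb (chromosome 7, 4703396 to 4704696), had 251, 520 and 308 counts, highest in the caecum. Its ratios were 1.59 (1.37 to 1.86) for caecum over ileum and 1.34 (1.16 to 1.54) for caecum over colon. Cox6b2 gave 7.76% (6.86 to 8.73), 12.6% (11.6 to 13.7) and 9.45% (8.47 to 10.5) of the counts of Cox6b1 and Cox6b2 together, with exact Clopper-Pearson intervals. Ndufa4l2, a relative of Ndufa4 known as a hypoxia target, was sparse, with 36, 34 and 32 counts.

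In complex I, the nuclear core subunits that carry the flavin and the iron-sulfur clusters did not all share the lower caecum level. Ndufv1, which binds NADH, had 62.6, 65.1 and 64.7 RPKM in ileum, caecum and colon, and a caecum over ileum ratio of 1.03 (0.999 to 1.06), so it lay close to the ileum level. Ndufs8, an iron-sulfur subunit, was highest in the colon, at 21.1, 20.1 and 23.3 RPKM.

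Among the supernumerary subunits, which surround the core, 25 of 31 entries were lower in caecum than in ileum, where 48.7% of all features were. Ndufb6 had 56.6, 45.7 and 49.1 RPKM in ileum, caecum and colon, a caecum over ileum ratio of 0.798 (0.748 to 0.850) and a colon over ileum ratio of 0.854 (0.799 to 0.913). The other 6 entries, at or above the ileum level, were Ndufa1, Ndufs6, Ndufa13, Ndufa11, Ndufa12 and Ndufa7. Ndufa1 had the highest ratio, with 610, 909 and 583 counts and 1.15 (1.03 to 1.27) over the ileum. Ndufs6 and Ndufa13 were at 38.0, 40.9 and 39.1 RPKM and at 19.0, 20.2 and 18.6 RPKM, highest in the caecum, though their ratios of 1.06 (1.0 to 1.13) and 1.05 (0.973 to 1.13) over the ileum were close to 1. Ndufa11 and Ndufa12 were lowest in the colon. Ndufa11 had 808, 1089 and 719 counts and a caecum over colon ratio of 1.20 (1.09 to 1.32), and Ndufa12 had 920, 1207 and 825 counts and a ratio of 1.16 (1.06 to 1.27). Ndufv3, next to the NADH site, was also lower in the colon, with 1686, 1831 and 1380 counts and a colon over ileum ratio of 0.795 (0.740 to 0.855). Ndufaf1, an assembly factor of complex I, had 1132, 1312 and 962 counts and a colon over ileum ratio of 0.826 (0.757 to 0.901).

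Complex II, the only complex with no mitochondrially encoded part, had its 4 genes highest in the ileum, where 34.3% of all features were highest. Sdha, the flavoprotein, had 51.0, 47.1 and 46.1 RPKM in ileum, caecum and colon. Sdhb, the iron-sulfur subunit, had 49.4, 48.5 and 48.3 RPKM, and the membrane anchors Sdhc and Sdhd had 27.6, 25.5 and 25.4 and 48.2, 42.4 and 45.3 RPKM. The 4 caecum over ileum ratios ran from 0.871 (0.829 to 0.914) for Sdhd to 0.972 (0.939 to 1.01) for Sdhb. Caecum and colon were close for Sdha, Sdhb and Sdhc, at ratios of 1.03 (0.998 to 1.05), 1.01 (0.974 to 1.05) and 1.01 (0.966 to 1.05).

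The members of complex III had different profiles, and 6 of 8 were lower in caecum than in ileum, where 48.7% of all features were. Uqcrc2, a core protein, had 94.9, 79.7 and 93.9 RPKM in ileum, caecum and colon and caecum ratios of 0.832 (0.811 to 0.853) over the ileum and 0.853 (0.832 to 0.874) over the colon. Its partner core protein Uqcrc1 had 63.6, 66.5 and 66.6 RPKM and a caecum over ileum ratio of 1.03 (0.997 to 1.07). The partners thus stood apart, with intervals that did not overlap. Uqcrb, which takes part in ubiquinone binding, had 35.0, 28.4 and 30.0 RPKM and was highest in the ileum, with ratios of 0.804 (0.749 to 0.863) for the caecum and 0.845 (0.784 to 0.910) for the colon over it. Uqcrh was highest in the colon and had a caecum over colon ratio of 0.853 (0.829 to 0.878).

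Some relatives of subunits had other profiles. Cox7a2l, which helps to join respiratory complexes into supercomplexes, had 65.3, 58.6 and 72.4 RPKM in ileum, caecum and colon and was highest in the colon. Its caecum over colon ratio was 0.812 (0.779 to 0.848) and its colon over ileum ratio 1.09 (1.05 to 1.14). Atp5sl, an ATP synthase relative by name, had 7.78, 8.67 and 8.94 RPKM and was lowest in the ileum, with ratios of 1.1 (1.02 to 1.19) for the caecum and 1.13 (1.05 to 1.23) for the colon over it. Atp5s had 186, 211 and 150 counts and was the lowest member of the Atp5 group, at 2.50, 2.20 and 1.99 RPKM.

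The mitochondrially encoded members had a pattern of their own, with the lower values in the colon more than in the caecum. Their median log2 ratio was -0.21 for colon over ileum, -0.12 for caecum over ileum and 0.03 for caecum over colon. For colon over ileum, 10 of 13 were lower, where 50.8% of all features were. Of the 13, mt-Nd4 and mt-Nd6 were lower by 20% or more and none was higher by 25% or more, so 2 passed that fold in either direction, where 27.6% of all features did. The colon was lowest for 9 of the 13, against 19 of 85 nuclear members and 31.3% of all features, and each of these 9 had the order ileum, caecum, colon from high to low. The nuclear median minus the mitochondrially encoded one was 0.15 log2 units for colon over ileum, -0.11 for caecum over colon and -0.03 for caecum over ileum, so the groups were furthest apart where the colon was compared.

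**Figure D3:**
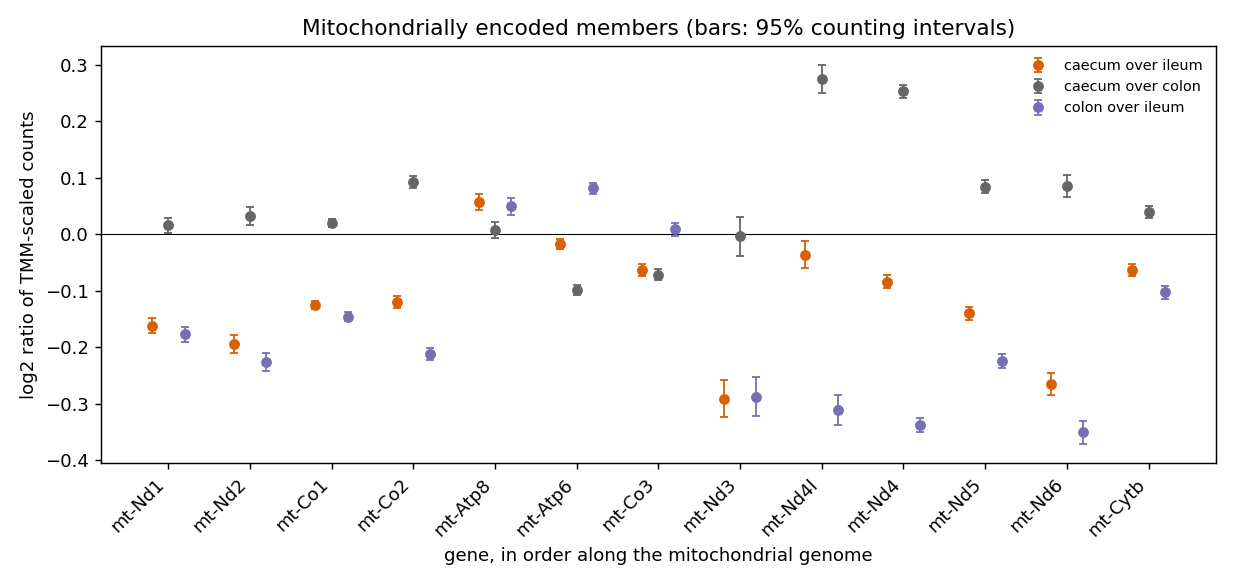
Log2 ratio of TMM-scaled counts for the 13 mitochondrially encoded members, in their order along the mitochondrial genome, for 3 pairs of segments; bars are 95% intervals for counting error. The colon over ileum points lie at or above 0 for mt-Atp8, mt-Atp6 and mt-Co3 and fall between -0.35 and -0.18 for the 7 mt-Nd genes.

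Within the mitochondrial genome the largest colon over ileum differences lay among the 7 complex I genes, though mt-Co2 differed more than mt-Nd1. All 7 were lower in the colon than in the ileum by at least 1.1-fold, where 26.4% of all features were, with a median log2 ratio of -0.29. mt-Nd4 had 1641, 1565 and 1319 RPKM in ileum, caecum and colon, and mt-Nd4l, which shares its messenger, 1767, 1742 and 1445 RPKM. Both were near the ileum level in the caecum and low in the colon, with colon over ileum ratios of 0.792 (0.785 to 0.798) and 0.806 (0.791 to 0.820). mt-Nd3 had 819, 677 and 681 RPKM and was the lowest of the 13, and mt-Nd6, the only one read from the other strand, had 1651, 1388 and 1314 RPKM. These 2 were low in caecum and colon alike, with caecum over ileum ratios of 0.817 (0.799 to 0.836) and 0.832 (0.821 to 0.843).

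The other complex I genes lay between. mt-Nd1 had 1893, 1710 and 1699 RPKM, mt-Nd2 1204, 1064 and 1045, and mt-Nd5 1345, 1234 and 1168. Their colon over ileum ratios were 0.884 (0.876 to 0.893), 0.855 (0.845 to 0.865) and 0.856 (0.849 to 0.863). mt-Cytb, the mitochondrially encoded subunit of complex III, showed smaller differences, at 2073, 2006 and 1959 RPKM and a ratio of 0.931 (0.924 to 0.939).

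The ATP synthase genes and their neighbour mt-Co3 did not share the lower colon level. mt-Atp8 was the most abundant member, at 6544, 6880 and 6873 RPKM in ileum, caecum and colon, and mt-Atp6 had 4569, 4563 and 4906 RPKM. mt-Co3 had 3451, 3339 and 3523 RPKM. Their colon over ileum ratios were 1.03 (1.02 to 1.05), 1.06 (1.05 to 1.07) and 1.01 (0.998 to 1.01). The 3 genes are adjacent, as mt-Atp8 and mt-Atp6 overlap by 43 bases and mt-Atp6 and mt-Co3 by 1. The other oxidase genes differed from mt-Co3, since mt-Co1 had 3860, 3576 and 3541 RPKM and mt-Co2 3789, 3526 and 3320, with colon over ileum ratios of 0.904 (0.899 to 0.909) and 0.863 (0.856 to 0.870).

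The strand used in counting is not given, so reads of mt-Nd6 and of transcripts from the opposite strand were not told apart, and mt-Nd5 and mt-Nd6 overlap by 14 bases. Nuclear copies of mitochondrial DNA are a further limit for these genes. mt-Nd4l (mitochondrial genome, 9877 to 10173 in mm9) has a copy, the pseudogene Gm10222, on chromosome 1 (24619243 to 24619539), and their GENCODE transcripts did not differ at any of 294 compared bases. The leading 90 bases of each are shown beside the counts of both features, with no base in capitals since none differed.
mt-Nd4l: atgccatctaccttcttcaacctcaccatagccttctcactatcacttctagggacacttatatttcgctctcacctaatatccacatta
Gm10222: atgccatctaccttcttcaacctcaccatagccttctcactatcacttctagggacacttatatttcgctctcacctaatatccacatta
The table lists 26280, 33338 and 21790 counts for mt-Nd4l and 26244, 33310 and 21772 for Gm10222 in ileum, caecum and colon. How reads that fit several places were counted is not given, and reads of the gene and its copy cannot be told apart. Of the 13 members, 7 share at least 10% of their 50-base words with another annotated gene, from 51.1% for mt-Co1 to 100% for mt-Co2. Among them mt-Atp6 shares 99.5% and mt-Co3 99.9%. A feature named as the closest copy of mt-Atp6, the pseudogene Gm10925, had 194906, 255041 and 211426 counts in ileum, caecum and colon. mt-Atp6 itself had 155827, 200244 and 169642. The other 6, mt-Nd1, mt-Nd2, mt-Nd5, mt-Nd6, mt-Cytb and mt-Atp8, share less than 10%. In these 6 the median log2 ratio was -0.20 for colon over ileum and -0.15 for caecum over ileum, and the nuclear median minus theirs turned from -0.03 to 0.02 for caecum over ileum when both groups were limited to members with few shared words.

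Nuclear members that share sequence with other features, pseudogenes or protein-coding genes, carry the same limit. Of the 89 nuclear features, 34 share at least 5% of their words with another gene. Atp5l2 shares 73.4% of its words and had 2350, 2832 and 2454 counts, beside 625, 735 and 672 for Atp5l, the g subunit gene of ATP synthase. Atp5g2 shares 38.3% of its words and had 2186, 2357 and 2214 counts, beside 4091, 4862 and 4328 for its pseudogene Gm10175. Atp5g1 shares 11.1% and Atp5g3 0%. Cox5b, a subunit of cytochrome c oxidase, had 395, 460 and 403 counts in ileum, caecum and colon while Gm11273, which is annotated as protein-coding and shares 11.9% of the words of Cox5b, had 1132, 1295 and 1088. The median log2 ratio for caecum over ileum was -0.13 in nuclear members that share less than 5% and -0.16 in those that share more.

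Genes around the chain were read from lists by role, beside the members. For each list, the share of all features lower was 48.7% for caecum over ileum and 50.8% for colon over ileum. Of 11 electron carriers and exchangers with enough counts, 10 were lower in caecum than in ileum, with a median log2 ratio of -0.21. They include Cycs, which encodes cytochrome c, at 23.6, 19.5 and 20.6 RPKM in ileum, caecum and colon, and Etfa, a subunit of the electron transfer flavoprotein, at 41.8, 28.9 and 41.2 RPKM. The adenine nucleotide carriers Slc25a4 and Slc25a5 had 139, 118 and 120 and 110, 90.1 and 101 RPKM. Of 25 further genes listed as assembly factors, 14 were lower in the caecum, with a median of -0.03, which is closer to all features than to the subunits. The 8 assembly factors and relatives inside the name rule were not like this list, with 7 of 8 lower and a median of -0.17. Of 24 genes that maintain or express mitochondrial DNA, 19 were lower, with a median of -0.12, among them Tfam at 27.3, 24.9 and 26.6 RPKM and Lrpprc, which stabilises mitochondrial messengers, at 13.1, 11.6 and 12.4.

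**Figure D4:**
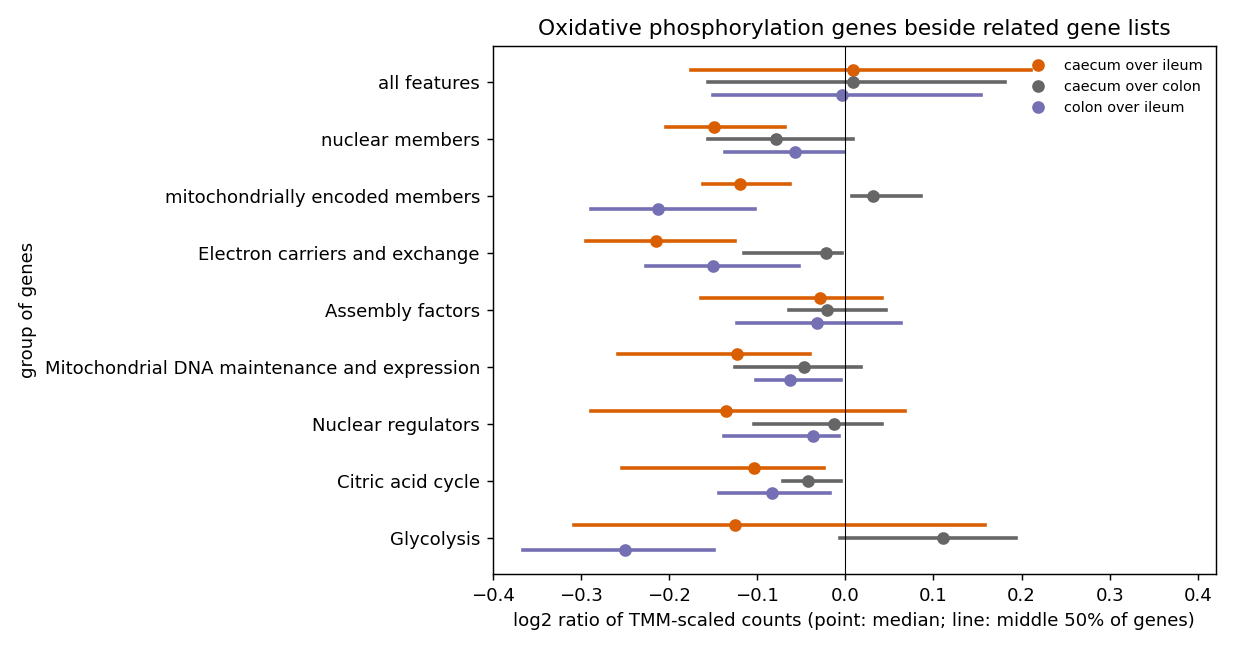
Median log2 ratio of TMM-scaled counts (points) and middle 50% of genes (lines) for all features, the nuclear and mitochondrially encoded members, and 6 lists of related genes, in 3 pairs of segments. For caecum over ileum the nuclear members lie at -0.15 and the citric acid cycle at -0.10, while glycolysis genes lie lowest for colon over ileum, at -0.25.

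The 12 regulators of these genes were more scattered. Nrf1 had 8.28, 8.74 and 8.74 RPKM in ileum, caecum and colon, Gabpa 29.6, 26.9 and 29.5, and Yy1 45.1, 42 and 45. Their caecum over ileum ratios were 1.04 (1.0 to 1.09), 0.900 (0.874 to 0.926) and 0.921 (0.891 to 0.952). The median nuclear member was at 0.902. Gabpb1, the other GABP gene listed, was higher in the caecum, at 1.11 (1.06 to 1.16). Of the 12 regulators, 8 were lower in caecum than in ileum, where 48.7% of all features were, and 4 were higher. Whether these regulators play a part in the results was not tested. The coactivator Ppargc1a stood out in the colon, with 1091, 1136 and 610 counts and a colon over ileum ratio of 0.543 (0.491 to 0.601). Of 19 citric acid cycle and pyruvate dehydrogenase genes, 15 were lower in caecum than in ileum and 15 in the colon than in the ileum, with medians of -0.10 and -0.08. Idh3a, a subunit of isocitrate dehydrogenase, was highest in the ileum, at 33, 23.4 and 22.1 RPKM. Of 22 glycolysis genes, 19 were lower in the colon than in the ileum, with a median of -0.25. Ldha, lactate dehydrogenase A, had 215, 155 and 152 RPKM, high in the ileum alone.

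Markers of several cell types also differed between the libraries. The summed RPKM of 7 smooth muscle markers was 1111, 435 and 597 in ileum, caecum and colon. Of these, 6 of 7 were lower in caecum than in ileum, where 48.7% of all features were. The summed RPKM of 7 proliferation genes was 398, 348 and 380, and again 6 of 7 were lower in caecum than in ileum. Single genes had other orders. Mki67 and Cdk1 were highest in the colon, at colon over ileum ratios of 1.12 and 1.02, and Mcm2 was highest in the caecum, at 1.07 over the ileum. Pericyte markers summed to 89.1, 43.0 and 84.1 RPKM over 7 genes, and enteric neuron markers to 114, 133 and 63.1 RPKM over 7. Erythroid markers were level, at 2642, 2701 and 2622 RPKM over 8 genes. The part of these cell types in the results was not tested, and fewer cells of a type cannot be told apart from less RNA per cell in whole tissue.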

How the data were processed

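The deposited table gives, per the file headers, expected counts per Ensembl feature and RPKM, which the authors scaled to length and depth. Bowtie 0.12.7, DESeq and mm9 are named with no roles in the submitters' processing notes, and the counting program, annotation release, use of strand and treatment of reads with several matches are not given in the sources used here. Each segment has 2 columns per kind. Their members differed by less than counting error (mean squared difference 0.659, 0.844 and 0.483 of the counting variance for ileum, caecum and colon), so they were averaged, rounded and read as 1 library.

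Scaling factors came from TMM in edgeR 4.0.16 (R 4.3.3). Ratios carry exact Clopper-Pearson 95% intervals and were computed from 20 counts in the higher library. They were tried on simulated counts that held counting error alone, the error these intervals assume. That trial could not show how the intervals hold where samples differ. Where 1 library had 0 counts, 3 stood in its place. Genes were named by a rule: all mitochondrially encoded members, members 2-fold apart, the 6 highest and 6 lowest interval bounds per pair among members with 1000 counts, isoform sets, complex II, and the extremes of each complex by RPKM. Ndufa1, Ndufa7, Uqcr11, Atp5l, Atp5l2, Ndufb4, Ndufab1, Ndufb2, Ndufb7, Cox5b and the other genes of the catalytic head were named after their values were seen, as was the ratio of 1.1. The members and lists were chosen with earlier results of these data known. Of the genes listed around the chain, 1110020P15Rik, Timmdc1, Cox14, Cox20, Coa5 and Slirp were not matched. Words of 50 bases were compared among GENCODE vM21 transcripts, and promoters are RefSeq's. Symbols and mm9 coordinates are the table's. A member that the naming rule takes is not reported here by name.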

Additional observations from a re-analysis of the deposited data

How the results depend on the processing

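The direction of the nuclear median held in each pair under every alternative run, at -0.16 to -0.13 for caecum over ileum, -0.08 to -0.05 for caecum over colon and -0.07 to -0.04 for colon over ileum. Scaled by total counts, and likewise as ratios of deposited RPKM, the mitochondrially encoded medians were -0.10 for caecum over ileum and -0.19 for colon over ileum, and 2 members in place of 4 were lower by 20% or more in colon over ileum. With 1000 counts required in the higher library, 0 members were higher by 25% or more in each of the 3 pairs, 0 were 2-fold higher in caecum over ileum or colon over ileum, and 2 and 0 were lower by 20% or more in caecum over ileum and caecum over colon. With Cox4i1, Cox4i2, Cyc1 and Usmg5 added, 2 members were higher by 25% or more in caecum over colon. With few shared words only (an alternative chosen after seeing the data, with 51 nuclear members tested), the mitochondrially encoded median was -0.15 and 1 member was lower by 20% or more in caecum over ileum. In that set 43 nuclear members were lower by any amount in caecum over ileum, 39 in colon over ileum and 36 in caecum over colon. In that order, 48.7%, 50.8% and 48.3% of all features were lower. At least 1.1-fold lower were 24, 13 and 13 members, or 47.1%, 25.5% and 25.5%, where 29.3%, 26.4% and 27.0% of all features were. For colon over ileum and caecum over colon these shares are thus near those of all features. Leaving out either column, 1 to 2 members were higher by 25% or more in caecum over ileum and in caecum over colon, 2 were lower by 20% or more in caecum over colon with either column, and 0 to 1 were 2-fold higher in caecum over ileum. No paired analysis was possible because each segment has 1 sample and no test was made. Counts limit the sparse isoforms, and differences between embryos, dissections and library preparations cannot be told apart from differences between segments.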

Other observations

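Atpif1, the inhibitor of ATP synthase that acts when the gradient collapses, lay outside the name rule and had 91.0, 110 and 88.0 RPKM in ileum, caecum and colon. Unlike most subunit genes it was highest in the caecum, with a ratio of 1.19 (1.16 to 1.23) over the ileum and an interval of 1.21 to 1.29 for its ratio over the colon. The oxidase subunit Cox4i1, the cytochrome c1 gene Cyc1 and the small ATP synthase subunit gene Usmg5, also outside the rule, had 158, 143 and 164, 42.7, 38.4 and 42.1, and 16.2, 15.4 and 15.3 RPKM. All 3 were lower in caecum than in ileum, at ratios of 0.890 (0.858 to 0.924), 0.890 (0.844 to 0.938) and 0.938 (0.798 to 1.1). Cox4i2, the isoform known from lung, was sparse, with 48, 51 and 26 counts.

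The mitochondrial ribosomal RNAs, which are read from the same strand as most mitochondrially encoded members, were lowest in the caecum. mt-Rnr1 had 10166, 10182 and 9373 counts and mt-Rnr2 15448, 16252 and 13934 in ileum, caecum and colon, with caecum over ileum ratios of 0.770 and 0.809 and colon over ileum ratios of 0.896 and 0.877. The libraries were made from polyadenylated RNA, so these counts are not levels of ribosomal RNA.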
